A study of Rattus norvegicus with 9 samples.

Results

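Axon guidance genes code for the secreted and membrane-bound cues, and their receptors, that steer growing nerve fibres, migrating cells and sprouting vessels. They were examined here in cultured cardiac fibroblasts, which make the collagen matrix of the heart, from rats of 3 ages. Members were chosen by gene symbol alone: semaphorins of classes 3 to 7, plexins A to D, neuropilins, ephrins, Eph receptors, netrins 1 to 5, Unc5 receptors, slits and Robo receptors. The rule found 59 of the 17337 genes in the count table, 33 of them ligands and 26 receptors. No count in any library was recorded for 3 members, 7 more had too few counts to test, and 49 were tested. Levels of Ephb4, the usual partner of ephrin-B2, and of the plexins Plxna1, Plxnb1 and Plxnc1 were not analysed here, and sums, shares and orders within a family cover the members in the table alone.

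All 9 RNA-seq libraries came from Sprague Dawley rats: 3 from fetuses at embryonic day 18 (E18), 3 from pups at postnatal day 1 (P1) and 3 from adults of 7 weeks. Every group was primary fibroblasts at passage 0, grown to confluency in flasks in serum-containing DMEM with ascorbic acid, with no other treatment named. The labels give no sex, no number of animals per flask and no sorting step. Nothing in them says that libraries of 1 age came from separate animals or cultures, so p-values measure the spread between these libraries, which may be technical.

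In these families a ligand on or from one cell is read by receptors on another. Class 3 semaphorins are secreted and signal through plexins, mostly with a neuropilin as the binding co-receptor, while semaphorins of classes 4 to 7 are membrane-anchored and bind plexins directly. Ephrins are tethered to the cell surface and activate Eph receptor tyrosine kinases on touching cells, netrins are laminin-related secreted proteins read by Dcc and Unc5 receptors, and slits are secreted ligands of Robo receptors. In the heart these genes are known for outflow tract and valve formation, for the patterning of coronary vessels and for the placing of cardiac nerves.

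Library totals ran from 13392825 to 22850491 assigned counts. The third fetal library stood apart: its Euclidean distance over log2 CPM (counts per 1000000, scaled by TMM) to the other 2 fetal libraries was 77.5 and 77.1, against 24.7 between those 2. Distances were 23.5 to 26.2 among neonatal and 40.0 to 56.3 among adult libraries, and the tests shared 1 estimate of the spread over all ages. In fetal replicate 3 the summed level of 7 epithelial markers was 405 CPM, against 23.8 and 26.7 in the other fetal libraries. Its summed fibroblast markers were 26484 CPM, against 53231 and 50075. Other cell types moved with age as well. All 12 macrophage markers exceeded 1 CPM in every adult library, with a summed level of 4174 to 5829 CPM, against 163 to 180 neonatal and 14.9 to 68.9 fetal. Cd163 was at 0 in all fetal and neonatal libraries. The 12 cardiomyocyte markers in the table summed to 7705 to 11553 CPM fetal, 5284 to 5846 neonatal and 306 to 321 adult, and in adult libraries nearly all of that was Tnnt2, with Csrp3 at 0. The 10 endothelial markers summed to 14.6 to 18.1, 30.8 to 32.5 and 102 to 113 CPM, and of 8 tested 4 were higher and 2 lower in adult than in neonatal libraries. Kdr was one of those lower, at 2.58 ± 0.255, 5.55 ± 0.364 and 0.900 ± 0.413 CPM at the 3 ages. Adult Tie1 made up 68.6 to 72.5 CPM of the adult endothelial sum, whereas Emcn, Cldn5 and Vwf stayed at or under 1.45 CPM. The 7 neuronal markers summed to 53.9 to 99.95, 141 to 144 and 244 to 287 CPM, most of it Tubb3 (36.2 ± 14.3, 139 ± 1.47 and 249 ± 23.2). Of 4 tested neuronal markers 2 were higher and 2 lower in adult than in fetal libraries, Stmn2 at 32.9 ± 10.4, 1.16 ± 0.223 and 0.0499 ± 0.0864 CPM, and Elavl3 was at 0 in all libraries. The 4 epicardial or mesothelial markers summed to 58.3 to 62.0, 29.5 to 32.0 and 14 to 33.0 CPM, with 3 lower and 1 higher in adult than in fetal libraries and Krt19 at 25.1 ± 2.01, 3.19 ± 0.365 and 0.125 ± 0.156. The 6 mural markers summed to 627 to 1423, 2632 to 2706 and 1392 to 1564 CPM, highest at the neonatal age, and the 6 Schwann cell markers to 10.8 to 11, 7.70 to 8.18 and 12.2 to 14.9. Of the 10 fibroblast markers, 9 exceeded 1 CPM in every library, and Col1a2 was listed below 1 CPM in all 9. In bulk RNA, fewer cells of a type and less RNA per cell cannot be told apart, and the part of these cell types in the results below was not tested.

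Most tested guidance genes were lower in adult than in fetal cultures, among them all 8 tested Eph receptors, 6 of 7 ephrins and 4 of 7 class 3 semaphorins. Sema6b, Sema4a, Slit3 and Ntn1 among the ligands and Plxnd1 among the receptors were higher. In adult against fetal libraries 40 of 49 members (81.6%) passed the test (edgeR quasi-likelihood, Benjamini-Hochberg adjusted p under 0.05), against 70.5% of the 11337 genes tested. Of the 49 members 11 (22.4%) were higher, where 34.9% of all genes were, and 29 (59.2%) were lower, where 35.5% of all genes were. The median log2 fold change of the 49 was -0.75, against -0.01 for all genes tested, and Epha3, which had no adult count, lies below that median at its fitted value and at its floor alike. A difference of at least 1 on the log2 scale was called for 32 members (65.3%) and for 32.4% of all genes. For 40 members (81.6%) no fetal library overlapped an adult one, which held for 71.8% of all genes. Without fetal replicate 3 the count of calls was 43, with 12 higher and 31 lower.

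The adult against neonatal comparison, which shares the adult libraries with the one above, gave 34 called members (69.4%), close to the 63.5% of all genes. The directions were uneven, with 8 higher (16.3%) and 26 lower (53.1%), against 31.6% and 31.8% of all genes. The median of the members was -0.67, and that of all genes -0.01. At 1 or more on the log2 scale 24 members (49.0%) were called, where the background was 25.0%. Libraries of 41 members (83.7%) did not overlap, where it was 76.1%. Without fetal replicate 3 the fit called 41 members, 10 higher and 31 lower.

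Between fetal and neonatal cultures, which lie only days apart, 27 members (55.1%) passed, against 36.3% of all genes. Of the 49 members 8 (16.3%) were higher in neonatal libraries, where 18.3% of all genes were, and 19 (38.8%) were lower, where 18.0% were. The median was -0.19 for members and -0.01 for all genes. A difference of at least 1 on the log2 scale was called for 12 members (24.5%), where the background was 11.2%. Libraries of 36 members (73.5%) did not overlap, where it was 57.4%. The count of 27 calls rested most on single libraries: it was 16, 16 and 14 without neonatal replicate 1, 2 and 3, and 35 without fetal replicate 3, when 15 members were called higher. With library size alone as the scaling it was again 27, with 5 higher and 22 lower, and 29.0% of all calls over all genes were higher. Of the 27 calls 14 held in all 16 alternative fits, and 13 were lost in at least 1 (Efna1, Efna4, Efnb1, Epha4, Epha7, Ntn3, Robo2, Sema3a, Sema3c, Sema3d, Sema4b, Sema5b and Sema6d, with a highest adjusted p between 0.0574 and 0.130). In the other pairs 3 calls each were lost: Ephb2, Ephb6 and Efna5 for adult against neonatal, and Ephb3, Sema6c and Epha1 for adult against fetal.

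**Figure D1:**
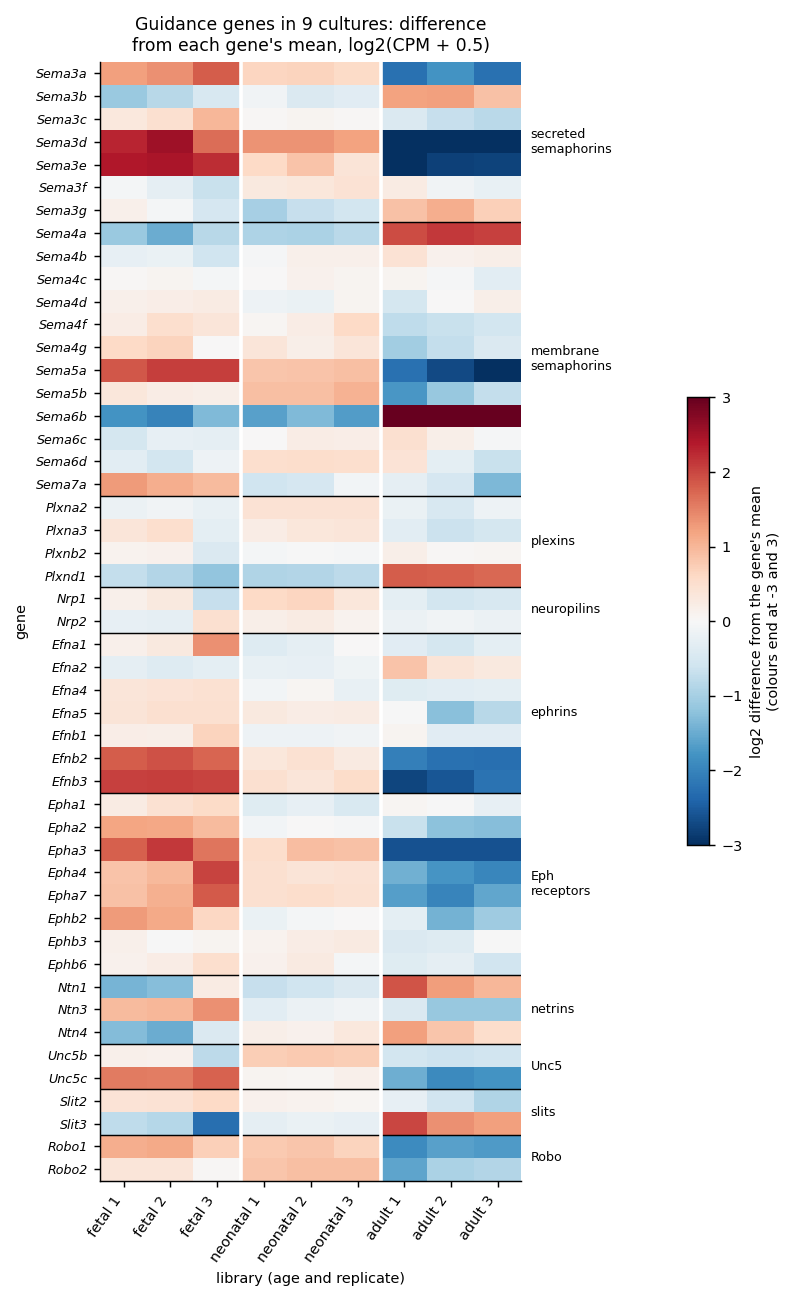
Level of the 49 tested members (rows, grouped by family) in each of the 9 libraries (columns), as the difference of log2(CPM + 0.5) from the gene's mean over the 9 libraries, with colours ending at -3 and 3. Red blocks in the fetal columns turn blue in the adult columns for Efnb2, Efnb3, Epha2, Epha3, Epha4, Epha7 and Ephb2 and for Sema3a, Sema3d, Sema3e and Sema5a. The other ephrins and Eph receptors are paler, with Efna2 highest in adult columns. Sema4a, Sema6b, Plxnd1 and Slit3 run from blue to red.

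Over the 3 ages 45 of the 49 members (91.8%) differed in the joint test, against 77.6% of all genes. The highest mean was fetal for 26 members, neonatal for 11 and adult for 12. Per length, as TMM-scaled reads per kilobase of exon per 1000000 (RPKM), 42 members reached 1 at the fetal, 44 at the neonatal and 36 at the adult age, and 16, 14 and 10 reached 10. Counts of highest means and of RPKM levels were not made over all genes, so they describe the members alone. The order at the top also changed. Unc5b (123 ± 39.6 RPKM, mean ± SD, n = 3) and Plxnb2 (103 ± 20.8) led in fetal libraries with overlapping values, ahead of Sema3c (79.1 ± 20.5) and Efnb2 (59.9 ± 3.56). In neonatal libraries Unc5b (224 ± 5.26) stood clear of Plxnb2 (105 ± 1.69), Sema3c (52.7 ± 0.843) and Slit3 (44.8 ± 0.831). Adult libraries were led by Slit3 (158 ± 48.1), Plxnb2 (114 ± 5.93), Unc5b (87.9 ± 2.24) and Plxnd1 (44.3 ± 1.55).

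Promoter sequence is shown for 4 members that moved in opposite directions. They are the largest fitted fall (Epha3, with no adult read), a fall at every age (Efnb2) and a ligand and its receptor that were higher in adults (Sema4a and Plxnd1). Each run is the 250 bases before the annotated start, 5′ to 3′ on the gene's strand, from RefSeq on build GRCr8. The count table itself uses rn6, on which the genes lie at chr11:423769-782954, chr16:86631151-86672050, chr2:187799569-187817578 and chr4:147854309-147893992. Capitals mark every match, on either strand, to a GC box (GGGCGG) or a CCAAT box (CCAAT).
Epha3 (chr11:14920426-14920675, minus strand): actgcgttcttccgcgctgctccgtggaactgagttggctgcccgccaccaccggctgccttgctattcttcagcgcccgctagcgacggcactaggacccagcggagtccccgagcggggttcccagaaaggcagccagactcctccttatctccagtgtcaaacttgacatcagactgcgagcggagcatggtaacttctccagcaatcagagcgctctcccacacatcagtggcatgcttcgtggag
Efnb2 (chr16:87484965-87485214, plus strand): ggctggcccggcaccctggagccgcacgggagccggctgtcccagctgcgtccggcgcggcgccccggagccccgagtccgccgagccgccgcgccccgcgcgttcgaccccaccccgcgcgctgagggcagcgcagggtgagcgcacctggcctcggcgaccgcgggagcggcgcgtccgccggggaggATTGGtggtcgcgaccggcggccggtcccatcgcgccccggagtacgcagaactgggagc
Sema4a (chr2:176212259-176212508, minus strand): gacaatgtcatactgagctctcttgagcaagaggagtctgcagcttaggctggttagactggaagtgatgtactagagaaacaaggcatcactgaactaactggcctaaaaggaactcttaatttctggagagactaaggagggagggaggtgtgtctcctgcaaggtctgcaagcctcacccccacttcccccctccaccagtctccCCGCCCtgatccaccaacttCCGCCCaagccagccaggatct
Plxnd1 (chr4:150715188-150715437, minus strand): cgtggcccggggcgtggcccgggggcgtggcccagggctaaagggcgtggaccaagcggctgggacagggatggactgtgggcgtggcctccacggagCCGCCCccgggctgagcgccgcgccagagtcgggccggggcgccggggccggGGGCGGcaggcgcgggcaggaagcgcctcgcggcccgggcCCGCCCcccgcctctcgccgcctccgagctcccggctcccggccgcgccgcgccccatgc

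The Epha3 window held no match to either motif, Efnb2 held 1 CCAAT box, Sema4a 2 GC boxes and Plxnd1 3. Efnb2 and Plxnd1 were rich in G and C (80.4% and 83.2%, with 43 and 37 CpG), Epha3 less so (60.4%, 17 CpG), and Sema4a had 53.2% and 2 CpG. RefSeq windows matched 46 of the 59 members, 47 windows in all because Robo1 has 2. A GC box lay in 24 of the 47 (51.1%) and in 30.5% of all 33469 windows of that length, and a CCAAT box in 34.0% of both. TATAAA was found in none of the 47 and in 12.9% of all windows. TGANTCA, the AP-1 site, was found in 1 (Epha10) and in 6.34% of all, and GAGGAAGT, a PU.1 site, in none and in 2.04% of all. Both strands were searched for each motif, and none of the 5 contains another. The median G and C content was 61.6% for members and 51.2% for all windows, with medians of 14 and 5 CpG. A match is a string of letters and not a bound site, and its absence says only that these letters are not in these 250 bases.

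Of 7 secreted class 3 semaphorins tested, 4 were lower and 2 higher in adult than in fetal libraries, where 35.5% and 34.9% of all genes were. Sema3a, Sema3c, Sema3d and Sema3e were lower in adult than in fetal cultures, Sema3b and Sema3g were higher, and Sema3f did not pass. The 4 that fell lie together on rn6 chromosome 4, from 14318276 to 19413519, in the order Sema3c, Sema3e, Sema3a, Sema3d. Sema3b and Sema3f lie together on chromosome 8 (chr8:116354071-116361343 and chr8:116439996-116469915), and Sema3g on chromosome 16. Of the 3 other genes of the table inside the chromosome 4 interval 2 were tested, Cacna2d1, a calcium channel subunit, and Hgf, hepatocyte growth factor. In adult against neonatal libraries both were lower, as were the 4 semaphorins and 31.8% of all genes. Their log2 fold changes were -1.99 for Cacna2d1 and -0.93 for Hgf (adjusted p = 1.81e-06 and 0.00743). In adult against fetal libraries Cacna2d1 was lower (-2.30, adjusted p = 4.13e-07) and Hgf higher (0.75, adjusted p = 0.0225). From fetal to neonatal libraries Hgf was higher (1.67, adjusted p = 0.00106) and Cacna2d1 did not pass (-0.31, adjusted p = 0.0667). The part of chromosomal position in these values was not tested.

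Sema3d, a cue for coronary and pulmonary vein patterning, measured 64.1, 75.9 and 41.3 CPM in the fetal libraries, 33.1, 32.9 and 29.9 in the neonatal and 0.918, 1.01 and 0.299 in the adult libraries. All adult libraries lay far below all others. The log2 fold change was -6.33 (SE 0.343, adjusted p = 4.28e-07) in adult against fetal and -5.41 (SE 0.347, adjusted p = 2.13e-06) in adult against neonatal libraries, and -0.92 (adjusted p = 0.0125, and 0.0574 without neonatal replicate 3) in neonatal against fetal. Sema3e, the ligand that binds Plxnd1 without a neuropilin, measured 34.1, 35.3 and 30.1 CPM in the fetal libraries, 9.46, 11.3 and 8.09 in the neonatal and 0.153, 0.433 and 0.449 in the adult libraries. Its 3 ages stood apart without overlap, with log2 fold changes of -1.78 (SE 0.164, adjusted p = 9.49e-05), -4.77 (SE 0.27, adjusted p = 8.25e-07) and -6.55 (SE 0.255, adjusted p = 4.73e-08) for the neonatal against fetal, adult against neonatal and adult against fetal pairs. Sema3a, the best known repellent of sensory and sympathetic axons, measured 5.88, 6.52 and 9.19 CPM in the fetal libraries, 3.74, 3.81 and 3.56 in the neonatal and 0.0765, 0.289 and 0.0749 in the adult libraries. Adult libraries held 1 to 4 Sema3a reads each. Its log2 fold change was -5.53 (SE 0.397, adjusted p = 1.95e-06) against fetal and -4.57 (SE 0.411, adjusted p = 1.29e-05) against neonatal libraries (-6.44 and -5.49 without adult replicate 2), and -0.96 (adjusted p = 0.0181, and up to 0.0764 without any 1 neonatal library) in neonatal against fetal.

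Sema3c, needed for outflow tract septation, was the most abundant class 3 member per length at every age, with 305, 338 and 488 CPM in the fetal libraries, 249, 256 and 249 in the neonatal and 180.3, 149.8 and 138 in the adult libraries. It stepped down at each age without overlap, with a log2 fold change of -0.59 (adjusted p = 0.0238) from fetal to neonatal and -0.69 (SE 0.168, adjusted p = 0.00571) from neonatal to adult. The first of these calls was lost without any 1 neonatal library (adjusted p up to 0.0772). Its share of the family's summed RPKM was 65.4% fetal (75.4% in replicate 3), 58.1% neonatal and 56.3% adult. Sema3f, a neuropilin-2 ligand, measured 69.1, 59.7 and 44.9 CPM in the fetal libraries, 87.4, 90.4 and 97 in the neonatal and 85.1, 66.7 and 61 in the adult libraries, with every neonatal library above every other. It was higher in neonatal than in fetal libraries (log2 fold change 0.66, SE 0.163, adjusted p = 0.0133). Its adult values lay between, -0.37 (adjusted p = 0.0747) from neonatal and 0.29 (adjusted p = 0.136) from fetal, and without fetal replicate 1 both differences passed (adjusted p = 0.0458 and 0.0442), the first also without fetal replicate 3 or adult replicate 1.

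Sema3b, first described as a tumour suppressor, measured 1.78, 2.25 and 3.03 CPM in the fetal libraries, 4.02, 3.11 and 3.36 in the neonatal and 10.8, 11 and 8.46 in the adult libraries. All 3 adult libraries exceeded all 6 others, and the log2 fold change was 2.10 (SE 0.227, adjusted p = 2.81e-05) against fetal and 1.53 (SE 0.221, adjusted p = 0.000258) against neonatal libraries. Neonatal against fetal (0.57, adjusted p = 0.08) passed without fetal replicate 3 (0.78, adjusted p = 0.0155). Sema3g, a semaphorin of vascular endothelium, was scarce throughout at 1.46, 1.19 and 0.744 CPM in the fetal libraries, 0.385, 0.604 and 0.712 in the neonatal and 2.75, 3.25 and 2.40 in the adult libraries. It was again highest in the adult libraries, with 1.30 (SE 0.323, adjusted p = 0.00518) against fetal and 2.30 (SE 0.352, adjusted p = 0.00036) against neonatal on the log2 scale. Its neonatal against fetal value of -0.99 (adjusted p = 0.0577) was -1.21 (adjusted p = 0.0154) without fetal replicate 3. The summed level of the 7 class 3 genes, which was not tested, was 119.8 ± 14.4 RPKM at the fetal, 90.8 ± 1.21 at the neonatal and 58.2 ± 8.57 at the adult age.

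Of 12 membrane semaphorins tested, 4 were higher and 5 lower in adult than in fetal libraries, shares near the 34.9% and 35.5% of all genes. In adult against neonatal libraries 2 were higher and 4 lower, beside 31.6% and 31.8% of all genes. The 2 with large rises were Sema6b and Sema4a. Sema6b, a ligand of A-type plexins, measured 0.432, 0.309 and 0.797 CPM in the fetal libraries, 0.550, 0.790 and 0.518 in the neonatal and 27.9, 32.3 and 31.3 in the adult libraries. It stayed under 1 CPM in all 6 fetal and neonatal libraries and rose by 5.90 (SE 0.266, adjusted p = 1.11e-07) against fetal and 5.58 (SE 0.26, adjusted p = 2.4e-07) against neonatal libraries on the log2 scale. Sema4a, a semaphorin of immune cells that binds B-type plexins and Plxnd1, measured 6.86, 5.16 and 8.44 CPM in the fetal libraries, 7.87, 7.76 and 8.61 in the neonatal and 60.9, 69.1 and 65.6 in the adult libraries. No adult library came near the others, and the log2 fold change was 3.26 (SE 0.158, adjusted p = 1.71e-07) against fetal and 3.01 (SE 0.156, adjusted p = 4.72e-07) against neonatal libraries. Neonatal against fetal (0.25) passed without fetal replicate 3 (0.43, adjusted p = 0.0231). Macrophage markers rose in the same libraries, Csf1r to 377, 534 and 619 CPM in adult replicates 1 to 3 from 29.8, 27.8 and 27.1 neonatal, and their part in the Sema4a and Sema6b values was not tested.

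The largest fall of the class was Sema5a, a semaphorin with thrombospondin repeats, at 74.1, 86.3 and 86.9 CPM in the fetal libraries, 36.3, 37.2 and 38 in the neonatal and 3.90, 2.67 and 1.12 in the adult libraries. Each age stood below the one before it without overlap, and the log2 fold change was -1.15 (SE 0.207, adjusted p = 0.00323), then -3.86 (SE 0.27, adjusted p = 3.51e-06), and -5.01 (SE 0.272, adjusted p = 4.34e-07) from fetal to adult. Its relative Sema5b peaked after birth instead, at 5.51, 5.02 and 4.83 CPM in the fetal libraries, 8.31, 8.36 and 9.19 in the neonatal and 0.918, 1.66 and 2.40 in the adult libraries. The adult values were the lowest, -2.37 (SE 0.274, adjusted p = 6.3e-05) against neonatal and -1.62 (SE 0.275, adjusted p = 0.000543) against fetal. The neonatal rise of 0.75 (adjusted p = 0.0375) was lost in 8 of 16 alternatives (adjusted p up to 0.123).

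Sema6d, which takes part in heart tube morphogenesis, measured 4.05, 3.35 and 4.57 CPM in the fetal libraries, 7.48, 7.62 and 7.44 in the neonatal and 7.04, 4.12 and 3.07 in the adult libraries. The neonatal libraries were the highest with an SD of 0.0926 CPM, while the adult libraries were spread, with replicate 1 near the neonatal level. Neonatal exceeded fetal libraries by 0.92 (SE 0.272, adjusted p = 0.0278) on the log2 scale, a call lost without any 1 neonatal library or fetal replicate 1 or 2 and with library size alone as the scaling (adjusted p up to 0.0794). The adult against neonatal difference of -0.67 (adjusted p = 0.0581) became -1.06 (adjusted p = 0.00247) without adult replicate 1, and passed without fetal replicate 3 as well (adjusted p = 0.0283). Sema7a, a lipid-anchored semaphorin that binds beta1 integrin, measured 17.3, 15.1 and 13.8 CPM in the fetal libraries, 4.35, 4.74 and 6.54 in the neonatal and 5.66, 4.69 and 2.40 in the adult libraries. Fetal libraries were higher than all others, and Sema7a fell by 1.57 on the log2 scale from fetal to neonatal (SE 0.273, adjusted p = 0.00257) with no called change afterwards (-0.29, adjusted p = 0.409).

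Sema4d, the plexin-B1 ligand also called CD100, did not pass in any pair. It measured 8.42, 8.59 and 8.98 CPM in the fetal libraries, 6.71, 6.46 and 7.89 in the neonatal and 5.05, 7.58 and 8.53 in the adult libraries, with adult replicate 1 the lowest of the 9. Sema4c was also uncalled in all 3 pairs, at means of 33 ± 1.65, 34.6 ± 1.62 and 31.1 ± 4.22 CPM for fetal, neonatal and adult libraries. Sema4g was lower in adult libraries, -1.07 (SE 0.211, adjusted p = 0.00172) against neonatal, as was the scarce Sema4f at -1.57 (SE 0.344, adjusted p = 0.00304). Sema4b rose by 0.61 (adjusted p = 0.00213) and Sema6c by 0.65 (adjusted p = 0.0172) in adult against fetal libraries, the latter lost without fetal replicate 1 or adult replicate 1 and in a fit on that pair alone (adjusted p up to 0.0644). The make-up of the class thus turned over: in fetal, neonatal and adult order, Sema4a held 5.45%, 7.12% and 38.5% of the summed RPKM, Sema6b 0.338%, 0.449% and 14.8%, and Sema5a 19.7%, 9.85% and 0.452%.

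**Figure D2:**
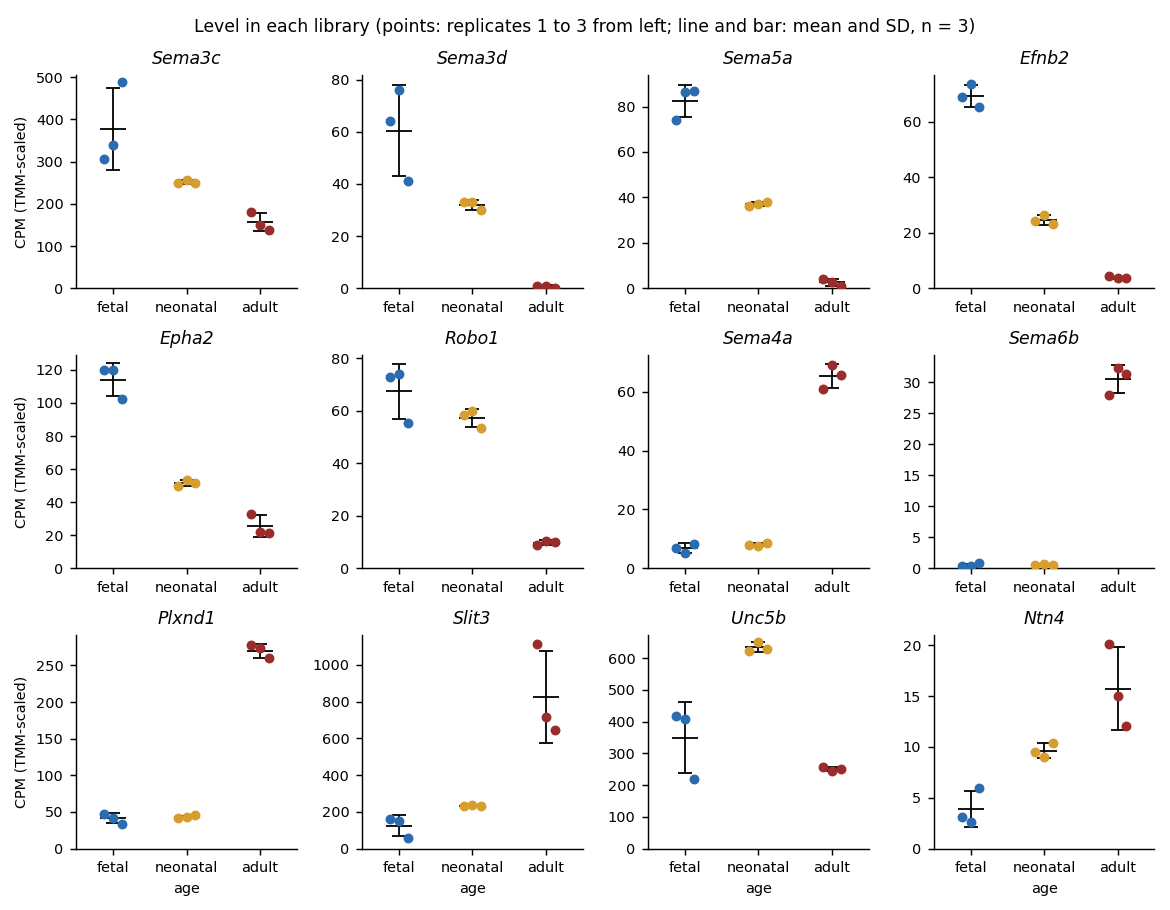
Level (CPM, TMM-scaled, linear axes from 0 that differ between panels) of 12 members in each library, with the mean and SD of 3 libraries per age. Sema3c, Sema3d, Sema5a, Efnb2, Epha2 and Robo1 are lowest in adult libraries, Sema4a, Sema6b, Plxnd1 and Slit3 are highest there, Unc5b peaks at the neonatal age, and the third fetal point lies apart for Sema3c, Slit3, Unc5b and Ntn4.

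Among semaphorin receptors Plxnd1 was higher and Plxna3 lower in adult than in fetal cultures, and the other 4 tested did not pass. Plxnd1, the receptor for Sema3e and Sema4a that is best known from vascular endothelium, measured 47.7, 42.4 and 34 CPM in the fetal libraries, 41.5, 42.7 and 45.3 in the neonatal and 278, 273 and 259.5 in the adult libraries. Fetal and neonatal libraries overlapped, all adult libraries lay far above them, and the log2 fold change was 2.71 (SE 0.115, adjusted p = 7.51e-08) against fetal and 2.65 (SE 0.114, adjusted p = 1.52e-07) against neonatal. Its share of the summed RPKM of the 5 plexins in the table was 5.85% fetal, 5.87% neonatal and 27.1% adult. Among endothelial markers in the same fetal, neonatal and adult libraries, Tie1 measured 0.421 ± 0.0667, 1.80 ± 0.292 and 70.3 ± 1.99 CPM, Pecam1 0.635 ± 0.347, 0.776 ± 0.170 and 7.16 ± 2.79, and Cdh5 0.255 ± 0.0744, 1.58 ± 0.340 and 4.23 ± 1.49. Kdr and Tek were instead highest in neonatal libraries, Kdr at 2.58, 5.55 and 0.900 CPM and Tek at 4.36, 8.84 and 5.31. Emcn, Cldn5 and Vwf stayed at or under 1.45 CPM. Of 8 tested endothelial markers 4 were higher and 2 lower in adult than in neonatal libraries. The summed macrophage markers were also highest in the adult libraries (4174 to 5829 CPM), and the part of either cell type in the Plxnd1 values was not tested. Of the 2 ligands named for Plxnd1, Sema3e was lowest and Sema4a highest in the same adult libraries.

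Plxnb2, a receptor for class 4 semaphorins, was the most abundant per length of the 5 plexins in the table at every age, with 771, 784 and 534 CPM in the fetal libraries, 698, 721 and 709 in the neonatal and 817, 743 and 753 in the adult libraries. No pair was called (adjusted p = 0.898, 0.449 and 0.345), and fetal replicate 3 was the lowest library. Plxna2, a partner of neuropilins in class 3 signalling, was highest in neonatal libraries at 27.9, 29.4 and 27.2 CPM in the fetal libraries, 43.1, 43.1 and 42.7 in the neonatal and 27.5, 22.6 and 28.6 in the adult libraries. Neonatal libraries agreed closely and lay above all others, 0.61 (SE 0.0925, adjusted p = 0.00133) over fetal on the log2 scale, and adult libraries lay -0.71 (SE 0.0939, adjusted p = 0.000142) from them. Plxna3 was lower in adult than in fetal libraries, with a log2 fold change of -0.74 (adjusted p = 0.00596).

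Nrp1, the neuropilin that also binds VEGF, measured 119, 132 and 66.9 CPM in the fetal libraries, 163, 168 and 137 in the neonatal and 87.3, 73.4 and 76.5 in the adult libraries. Fetal replicate 3 was the lowest library of all and apart from its group. Adult libraries were lower than neonatal ones (-0.98, SE 0.221, adjusted p = 0.00396), and the other 2 pairs, uncalled with all libraries, passed without that one: 0.32 (adjusted p = 0.03) for neonatal against fetal, from 0.56, and -0.67 (adjusted p = 0.000159) for adult against fetal, from -0.42. The first also passed without fetal replicate 2 (0.75, adjusted p = 0.0355). Nrp2, the co-receptor of Sema3f and Sema3c, measured 109, 108 and 181 CPM in the fetal libraries, 148, 154 and 139 in the neonatal and 114, 120.3 and 114 in the adult libraries, and here fetal replicate 3 was the highest of the 9. No pair was called with all libraries. Without that one, the log2 fold change was 0.44 (adjusted p = 0.000167) for neonatal against fetal and -0.34 (adjusted p = 0.000126) for adult against neonatal libraries.

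Ephrins and Eph receptors fell together. In adult against fetal libraries all 8 tested Eph receptors and 6 of 7 ephrins were lower, and Efna2 alone was higher. In neonatal against fetal libraries 6 of 8 Eph receptors and 5 of 7 ephrins were lower and none was higher. Of all genes tested, 35.5% were lower in the first pair, and 18.0% were lower and 18.3% higher in the second. Medians of the log2 fold change in adult against fetal libraries were -2.05 for the Eph receptors and -1.18 for the ephrins, beside -0.01 for all genes. Summed levels at the fetal, neonatal and adult ages were 74.9 ± 0.571, 43.8 ± 1.78 and 23.1 ± 2.73 RPKM for the receptors and 111 ± 5.97, 55.9 ± 1.46 and 32.6 ± 5.41 RPKM for the ephrins.

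Efnb2, ephrin-B2, the transmembrane ligand that marks arteries, measured 69.1, 73.6 and 65.4 CPM in the fetal libraries, 24.4, 26.6 and 23 in the neonatal and 4.28, 3.68 and 3.59 in the adult libraries. It dropped at each age without overlap and with little spread. Its log2 fold change was -1.49 (SE 0.0886, adjusted p = 1.09e-05) and then -2.68 (SE 0.107, adjusted p = 1e-07), and -4.17 (SE 0.107, adjusted p = 4.05e-09) over the whole interval, an 18-fold difference. Efnb3, ephrin-B3, went further, from 13.5, 13.8 and 13.2 CPM fetal through 4.18, 3.81 and 4.40 neonatal to 0, 1 and 3 reads in the adult libraries. Pooled over libraries the fetal level was 136 times the adult (95% interval 52.9 to 500, exact, counting error only) and the neonatal level 41.3 times (15.9 to 153). The log2 fold change was -1.71 (SE 0.229, adjusted p = 0.000686) for neonatal against fetal and -6.98 and -5.28 (adjusted p = 3.65e-07 and 5.82e-06) for adult against fetal and neonatal, the last 2 being -8.25 and -6.55 without adult replicate 3. Efnb1, ephrin-B1, changed less, at 66.5, 65.7 and 92.3 CPM in the fetal libraries, 52.7, 52.6 and 54.1 in the neonatal and 61.4, 45.6 and 46 in the adult libraries. It was highest in fetal libraries, with a log2 fold change of -0.55 (SE 0.153, adjusted p = 0.00923) to adult and -0.49 (adjusted p = 0.0315) to neonatal, the latter lost without any 1 neonatal library (adjusted p up to 0.0908). Its share of the summed ephrin RPKM went from 20.6% to 29.2% and 47.9% as that of Efnb2 went from 54.1% to 38.1% and 10.3%.

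Among the lipid-anchored A ephrins, Efna5 measured 5.40, 5.73 and 5.74 CPM in the fetal libraries, 5.01, 4.74 and 4.79 in the neonatal and 3.98, 1.37 and 2.02 in the adult libraries. Adult replicates 2 and 3 were the lowest libraries and replicate 1 lay nearer the other ages (mean 2.46 ± 1.36 CPM). The log2 fold change was -1.20 (SE 0.317, adjusted p = 0.00735) against fetal and -0.98 (SE 0.319, adjusted p = 0.0225) against neonatal libraries, and the second call was lost without any 1 neonatal library and without adult replicate 2 or 3 (adjusted p up to 0.0749). Efna1 and Efna4 were lower in adult than in fetal libraries, with log2 fold changes of -1.18 (adjusted p = 0.0102) and -0.79 (adjusted p = 0.000451), and Efna1 was highest in fetal replicate 3 at 15.5 CPM. Efna2 was scarce and rose to 2.94 ± 0.773 CPM from 1.40 ± 0.0724, a log2 fold change of 1.06 (SE 0.252, adjusted p = 0.00402).

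Of the receptors, Epha3 showed the largest fitted fall of any member. It measured 10.2, 12.8 and 8.87 CPM in fetal and 3.91, 5.30 and 5.11 in neonatal libraries and had no read in any adult library. Against a floor of 3 reads per library (0.224 CPM), the fetal mean was at least 47.4-fold higher and the neonatal mean at least 21.3-fold higher (adjusted p = 1.86e-06 and 8.76e-06). The first bound lies below the 136-fold pooled difference of Efnb3, so the rank of Epha3 rests on its fitted value. Neonatal Epha3 was already below fetal, with a log2 fold change of -1.15 (SE 0.214, adjusted p = 0.00617). Epha2, the receptor of ephrin-A1, was the most abundant Eph receptor per length in fetal libraries and measured 119.8, 119.7 and 102 CPM in the fetal libraries, 50.1, 53.3 and 51.6 in the neonatal and 33, 22.1 and 21.4 in the adult libraries. The ages stepped down without overlap, with a log2 fold change of -1.14 (SE 0.148, adjusted p = 0.000569) and then -1.02 (SE 0.153, adjusted p = 0.000323). Ephb2, a receptor of the B ephrins, measured 41.4, 38 and 26.2 CPM in the fetal libraries, 14.6, 16.2 and 16.9 in the neonatal and 13.6, 5.99 and 7.86 in the adult libraries. Adult replicate 1 lay close to the neonatal libraries, and while the fall from fetal passed (-1.15, SE 0.264, adjusted p = 0.00998 to neonatal and -1.95, SE 0.279, adjusted p = 0.000208, to adult), the adult against neonatal call (-0.80, adjusted p = 0.033) was lost in 5 of 16 alternatives (adjusted p up to 0.102).

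Epha4 and Epha7 were both highest in fetal replicate 3 (20.3 and 58 CPM) and lowest in adult libraries, with -3.58 (SE 0.378, adjusted p = 2.37e-05) and -3.19 (SE 0.269, adjusted p = 6.26e-06) for adult against fetal. Their neonatal against fetal falls were lost without any 1 neonatal library, and that of Epha4 in a fit on that pair alone (adjusted p up to 0.0964 and 0.0679). Ephb3 changed least of the receptors from fetal to adult libraries, at 48.6 ± 2.76, 52.7 ± 3.13 and 38.1 ± 6.66 CPM, and its share of the summed Eph RPKM went from 16.2% to 30.0% and 41.6%. Its adult against fetal call (-0.35, adjusted p = 0.022) was lost without fetal replicate 1, adult replicate 1 or adult replicate 2 and in a fit on that pair alone (adjusted p up to 0.0837). Ephb6, a receptor without kinase activity, was lower in adult than in fetal libraries (-0.75, adjusted p = 0.00341). Epha1 fell from fetal to neonatal libraries, with a log2 fold change of -0.90 (adjusted p = 0.00633). It shares 144 exon bases with Zyx on the other strand, and reads in shared exons were not assigned.

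**Figure D3:**
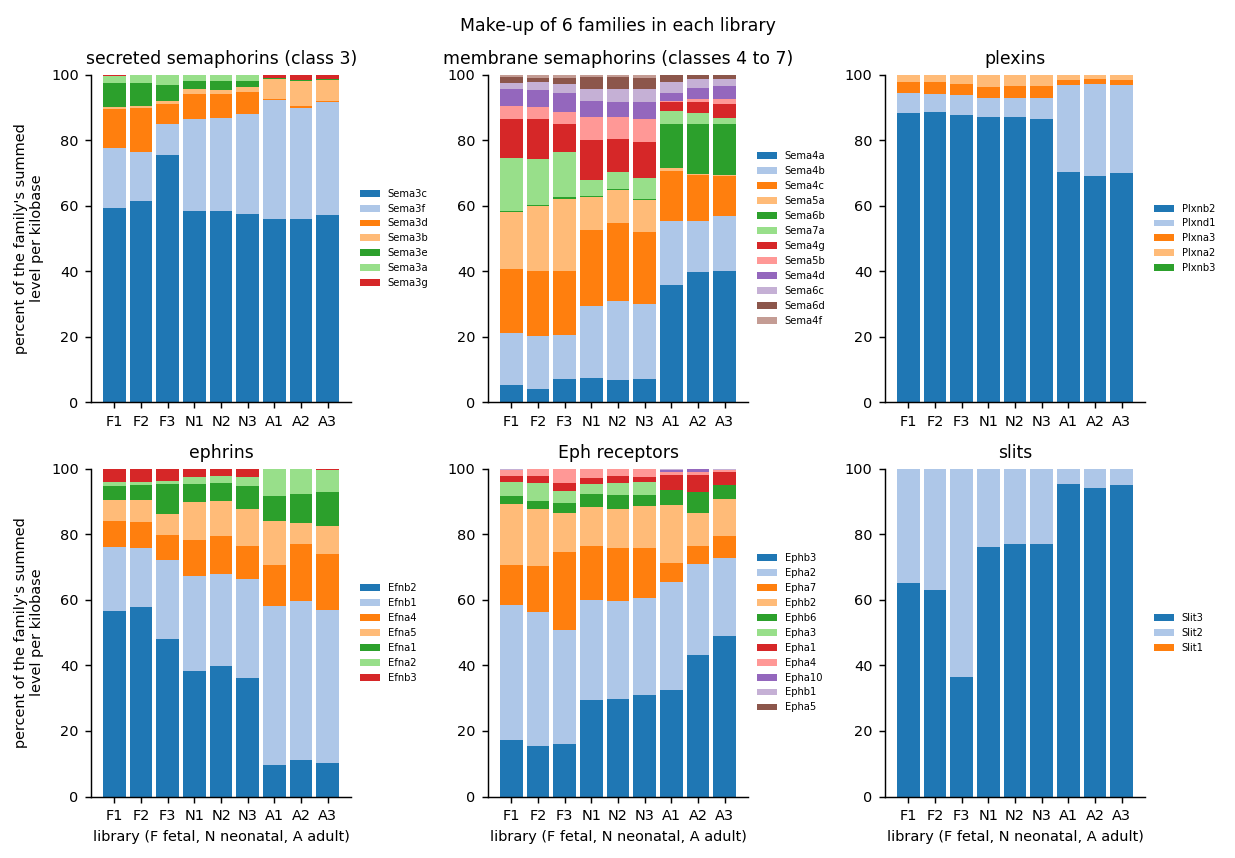
Share of each family's summed level per kilobase (percent, stacked to 100) taken by each member in every library (F fetal, N neonatal, A adult, with the replicate number). Efnb2 gives way to Efnb1 among ephrins. Sema4a and Sema6b expand among membrane semaphorins and Plxnd1 among plexins, while Sema3c is the largest class 3 member in every library. Slit3 is the larger slit in every library but fetal replicate 3, and its share is highest in adult libraries.

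Of 3 tested netrins, 2 were higher and 1 lower in adult than in fetal libraries, where 34.9% and 35.5% of all genes were. Ntn4, a netrin of basement membranes, measured 3.08, 2.64 and 5.95 CPM in the fetal libraries, 9.46, 9.01 and 10.4 in the neonatal and 20.1, 15 and 12.1 in the adult libraries. Groups did not overlap, and fetal replicate 3 was the nearest fetal library to the neonatal ones. Neonatal exceeded fetal by 1.31 (SE 0.302, adjusted p = 0.00966), adult exceeded fetal by 2.02 (SE 0.303, adjusted p = 0.000248), and the step from neonatal to adult of 0.71 (adjusted p = 0.0542) passed without fetal replicate 2 or 3 or adult replicate 3 (adjusted p = 0.0392, 0.0032 and 0.0397). Ntn1, netrin-1, the founding member, measured 0.864, 0.970 and 3.72 CPM in the fetal libraries, 1.71, 1.86 and 2.14 in the neonatal and 12.8, 8.09 and 6.66 in the adult libraries. Fetal replicate 3 exceeded every neonatal library, and the other 2 fetal libraries were the lowest of all. The adult rise was 2.32 (SE 0.514, adjusted p = 0.00287) over fetal and 2.27 (SE 0.515, adjusted p = 0.00386) over neonatal libraries, and 3.30 over fetal without fetal replicate 3, when neonatal also exceeded fetal by 1.03 (adjusted p = 0.0413). Ntn3 ran the other way, at 1.62, 1.67 and 2.34 CPM in the fetal libraries, 0.385, 0.465 and 0.518 in the neonatal and 0.306, 0 and 0 in the adult libraries. It was lower in neonatal than in fetal libraries (-2.03, SE 0.534, adjusted p = 0.0171), a call lost without any 1 neonatal library (adjusted p up to 0.0818), and in adult than in fetal (-4.14, SE 0.721, adjusted p = 0.000636). The only adult Ntn3 reads were 4 in replicate 1, and without it the last value was -8.06 and adult against neonatal passed (adjusted p = 0.00202, and 0.0358 without fetal replicate 3).

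Unc5b, a repulsive netrin receptor, was among the 3 most abundant members per length at every age and held 95.6%, 99.2% and 99.3% of the summed Unc5 level in fetal, neonatal and adult libraries. It measured 418, 409.7 and 219 CPM in the fetal libraries, 623, 652 and 629.8 in the neonatal and 256, 243 and 251 in the adult libraries. All neonatal libraries exceeded all others, and fetal replicate 3 was the lowest of the 9. Neonatal was higher than fetal by 0.86 (SE 0.205, adjusted p = 0.0116), and the log2 fold change from neonatal to adult was -1.35 (SE 0.207, adjusted p = 0.000419). Adult against fetal was not called (-0.48, adjusted p = 0.0594) but was without that fetal library (-0.73, adjusted p = 1.34e-07). Unc5c, a second receptor of the family, fell instead at both steps, at 44.9, 43.9 and 51.7 CPM in the fetal libraries, 15.9, 15.7 and 16.6 in the neonatal and 5.13, 3.61 and 3.97 in the adult libraries. Its ages did not overlap, with -1.54 (SE 0.117, adjusted p = 3.85e-05), -1.92 (SE 0.135, adjusted p = 2.96e-06) and -3.47 (SE 0.135, adjusted p = 4.69e-08) for the 3 pairs.

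The slits went in opposite directions. Slit3, expressed by cardiac fibroblasts and studied in fibrosis, measured 163, 151 and 57 CPM in the fetal libraries, 230.4, 238 and 231 in the neonatal and 1110.5, 717 and 645 in the adult libraries. Adult libraries lay far above the rest but were spread, with replicate 1 the highest, and fetal replicate 3 was the lowest of the 9. The log2 fold change was 2.74 (SE 0.376, adjusted p = 0.000181) against fetal and 1.82 (SE 0.363, adjusted p = 0.00209) against neonatal libraries, and that of neonatal against fetal did not pass (0.92, adjusted p = 0.0741). Slit2, the ligand best known from midline and vessel guidance, measured 119, 121 and 136 CPM in the fetal libraries, 98.4, 97.1 and 93.9 in the neonatal and 75.1, 59.9 and 47.7 in the adult libraries. It was lower in adult libraries, with a log2 fold change of -1.04 (SE 0.14, adjusted p = 0.000115) against fetal and -0.66 (SE 0.139, adjusted p = 0.00242) against neonatal, and neonatal against fetal passed without adult replicate 1 or 3 (-0.38, adjusted p = 0.0561 with all libraries, 0.0137 and 0.0165 without). Slit3 accounted for 54.9%, 76.8% and 94.8% of the summed slit RPKM at the 3 ages, and the sums were 41.3 ± 9.85, 58.3 ± 0.931 and 167 ± 49.9 RPKM. The fetal share was 65.1% and 63.0% in replicates 1 and 2 and 36.5% in replicate 3. Among adult libraries replicate 1 had the highest Slit3, Ntn1 and Ntn4 and the lowest summed macrophage level (4174 CPM, against 5079 and 5829 in replicates 2 and 3). Members that fell with age, such as Slit2, Sema3c and Epha2, were also highest in that adult library, whereas Sema4a, Sema6b and Robo1 were lowest in it. Replicate 1 also had the lowest summed fibroblast markers (26657 CPM, against 32162 and 34594). Of these, Col1a1, Col3a1, Lum, Thy1 and Vim were lowest there, and Dcn, Pdgfra, Tcf21, Ddr2 and the scarce Col1a2 were highest there. Its endothelial sum was the highest (113 CPM, against 110 and 102). The part of any cell type in these values was not tested.

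Both detected Robo receptors fell in adult cultures, in contrast to Slit3. Robo1 measured 72.7, 74.1 and 55.2 CPM in the fetal libraries, 58.5, 60.0 and 53.4 in the neonatal and 8.72, 10.6 and 9.96 in the adult libraries. Fetal and neonatal libraries overlapped and adult libraries lay well below them, -2.78 (SE 0.134, adjusted p = 1.65e-07) from fetal and -2.55 (SE 0.134, adjusted p = 4.94e-07) from neonatal. Neonatal against fetal (-0.23, adjusted p = 0.15) passed without fetal replicate 3 (-0.35, adjusted p = 0.00399). Robo2, its neighbour on chromosome 11 (chr11:9209568-10143317 and chr11:11062866-11585534), measured 63.5, 63.4 and 49.9 CPM in the fetal libraries, 86.9, 91.4 and 92.3 in the neonatal and 16, 25.2 and 26.5 in the adult libraries. It was highest in neonatal libraries, 0.61 (SE 0.165, adjusted p = 0.019) over fetal, a call lost without any 1 neonatal library (adjusted p up to 0.0642). The adult libraries were the lowest, -2.00 (SE 0.176, adjusted p = 1.21e-05) from neonatal and -1.38 (SE 0.174, adjusted p = 7.91e-05) from fetal. The summed Robo level was 20.2 ± 3.0, 21.6 ± 0.620 and 4.49 ± 0.817 RPKM. Robo4, the endothelial Robo, had no count in any library, and 2848 of its 5772 exon bases overlap an unnamed gene, where reads were not assigned. That overlap leaves its other exon bases unaccounted for. Its rn6 model (chr8:39083327-39888918, minus strand) spans other genes such as Chek1 and Stt3a, whereas its GRCr8 window is on the plus strand. The lack of counts was therefore not read as absence of Robo4.

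**Figure D4:**
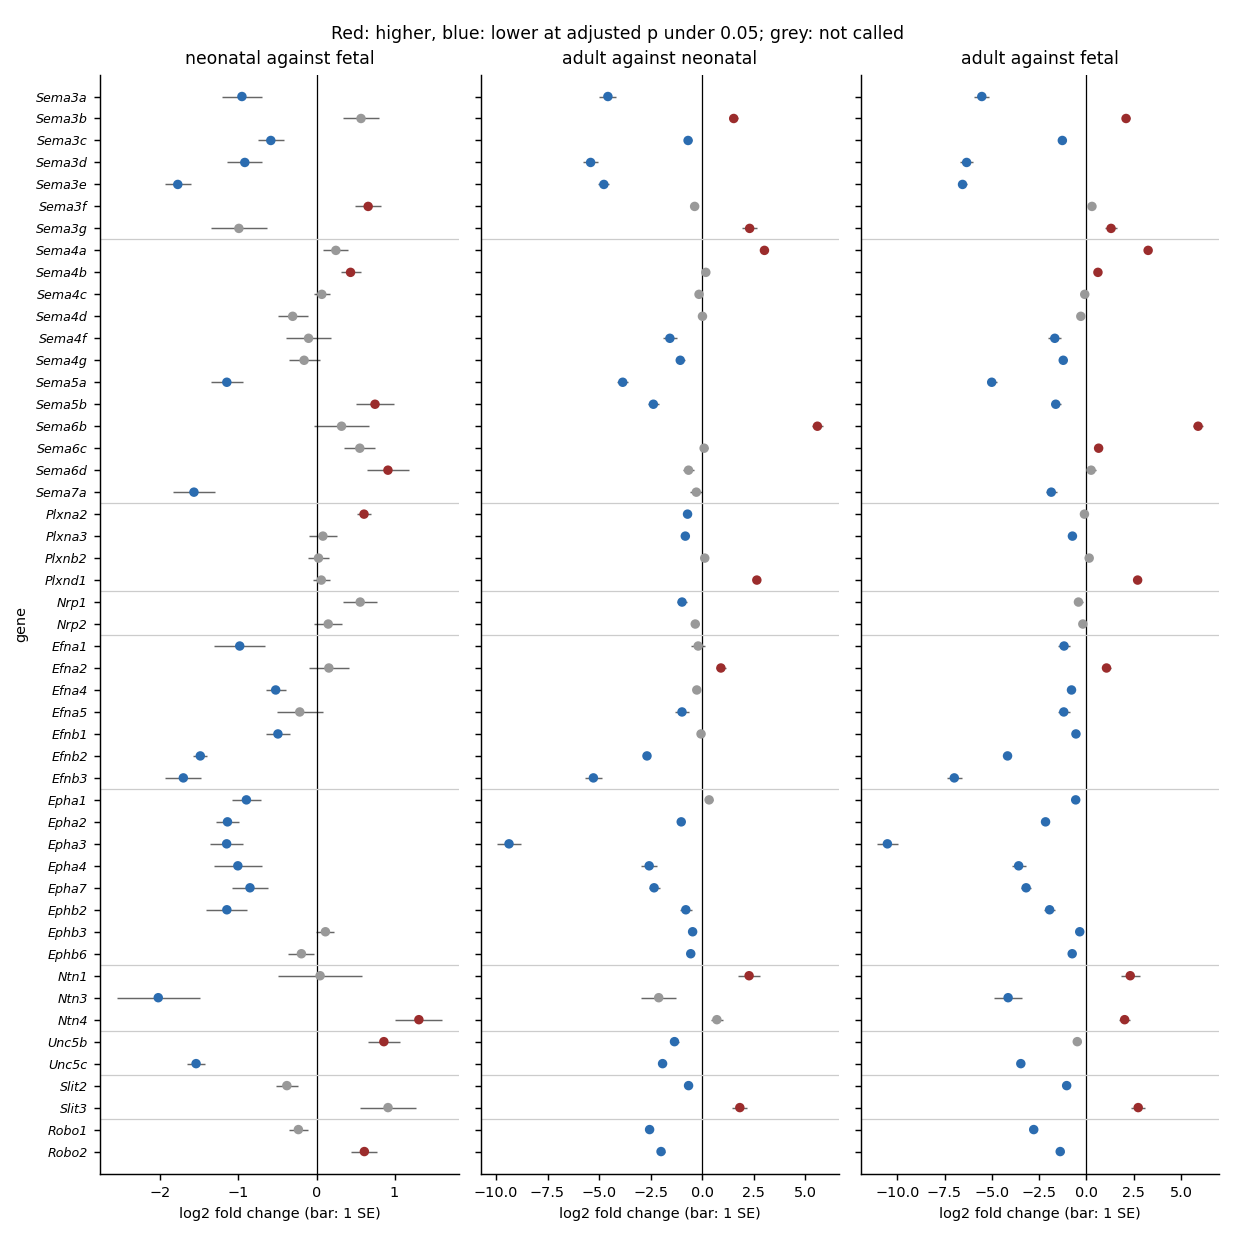
Log2 fold change with 1 SE (edgeR) of the 49 tested members in the 3 pairs of ages, red for higher, blue for lower and grey for not called, with x axes that differ between panels. The fall from neonatal to adult libraries is larger than the step from fetal to neonatal for Sema3a, Sema3d, Efnb3 and Epha3, and Epha3, with no adult read, is drawn at its fitted value, which is not a bound.

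Partner genes of the same pathways were followed in a list of 65, of which 59 were in the table and 51 tested. In neonatal against fetal libraries 15 were higher and 8 lower, in adult against neonatal 12 and 30, and in adult against fetal 14 and 24, beside backgrounds of 18.3% and 18.0%, 31.6% and 31.8%, and 34.9% and 35.5% of all genes. Of the 16 co-receptors and extracellular partners tested, 4 were higher and 5 lower in adult than in fetal libraries, and of the 35 intracellular effectors 10 were higher and 19 lower. Enah, the actin regulator downstream of Robo receptors, fell at both steps, from 214, 214 and 283 CPM fetal through 123, 124 and 118 neonatal to 14.6, 16.6 and 17.3 adult (-3.87, SE 0.128, adjusted p = 1.83e-08 for adult against fetal), whereas Robo2 was highest in neonatal libraries. Grip1, a scaffold that binds B ephrins, went from 10.1 ± 1.48 to 1.95 ± 0.264 and 0.172 ± 0.155 CPM (-5.80, SE 0.446, adjusted p = 2.99e-06), and Met, a receptor that associates with B-type plexins, from 22 ± 6.35 to 7.44 ± 0.802 and 1.41 ± 0.251 (-3.95, SE 0.254, adjusted p = 9.52e-07).

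Other partners were higher in adult cultures. Fes, a kinase that acts downstream of A-type plexins and is rich in myeloid cells, measured 1.40, 1.45 and 1.17 CPM in the fetal libraries, 3.58, 3.30 and 4.59 in the neonatal and 43.6, 60.6 and 62.9 in the adult libraries. All adult libraries lay far above the rest, 5.36 (SE 0.204, adjusted p = 4.22e-08) from fetal, and the macrophage markers were highest in the same libraries, their part in this value not tested. Nrcam, a cell adhesion partner of neuropilin-2, rose from 0.804 ± 0.637 and 0.961 ± 0.344 CPM to 16.3 ± 1.16 (4.35, SE 0.431, adjusted p = 1.59e-05), and Dpysl4, of the collapsin response mediator family, from 0.167 ± 0.162 through 3.14 ± 0.0475 to 10.2 ± 2.27 (5.87, SE 0.486, adjusted p = 4.82e-06). Its relative Dpysl3 was lower in adult libraries (-1.37, SE 0.0881, adjusted p = 9.57e-07). Itgb1, the integrin that binds Sema7a, peaked in neonatal libraries at 7205 ± 218 CPM, beside 3712 ± 702 fetal and 3388 ± 237 adult.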

How the data were processed

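Gene counts of 9 RNA-seq libraries were used. Per the file headers, the authors counted reads per gene with featureCounts 1.6.3 on an rn6 annotation without a strand option, so that reads in exons shared by genes were not assigned. The submitters' processing notes also name FastQC, Trimmomatic 0.39, STAR 2.5.2b, Subread 1.6.3 and DESeq2, with no role or order. A second deposited table of normalized signal held 12786 genes, and 100% of its values equalled the deposited count divided by 1 factor per library (within 0.01% of the count), so it was not tested. Exon lengths came from the deposited count table.

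Ages were compared with edgeR 4.0.16 in R 4.3.3: filterByExpr (11337 genes), TMM scaling, robust glmQLFit and glmQLFTest on all 9 libraries with age as the only term, and Benjamini-Hochberg adjustment over all genes, with 0.05 as the threshold. CPM are counts per 1000000 of the TMM-scaled library, and RPKM are CPM per kilobase of exon. Intervals and the floor of 3 counts cover counting error only. Named are, for each pair, the 6 members with the largest fold change in each direction among those called whose higher mean reached 1 CPM, and a panel of 25 genes by role, of which 24 were in the table. The members, the lists and the tests were chosen with earlier results of these data known. On simulated data (11227 genes, 197 of them changed) the test called 93% of 4-fold and 72.2% of 2-fold changes in adult against neonatal libraries and 0.0997% of unchanged genes. In the real pair 63.5% of genes were called, and the simulation held no library that stood apart like fetal replicate 3. These rates therefore may not hold for the real data. Alternatives were DESeq2 1.42.0, other scalings and filters, fits on 1 pair of ages, a replicate block and each library left out. RefSeq promoter windows (GRCr8) were matched by symbol, using the 250 bases before the start.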

Additional observations from a re-analysis of the deposited data

How the results depend on the processing

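The 27, 34, 40 and 45 members called (neonatal against fetal, adult against neonatal, adult against fetal, any difference) were 30, 37, 41 and 45 with DESeq2, 28, 34, 40 and 45 with its size factors, 27, 33, 42 and 43 with library size alone, 27, 35, 41 and 46 with every gene kept, 27, 34, 40 and 45 with a minimum of 1 CPM in 3 libraries, and 28, 38 and 37 with fits on 1 pair. Leaving out 1 library gave 14 to 35, 31 to 41, 39 to 43 and 44 to 48. With a fold change of at least 1 on the log2 scale as well, a rule added after seeing the data, the pairs gave 12, 24 and 32. Library size alone shifted the median of all genes by -0.17 in neonatal against fetal and -0.11 in adult against fetal libraries.

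Replicate numbers are in the titles, but libraries of the same number did not deviate together (correlations of -0.06 to 0.05), so the numbers were not taken as pairs; with the replicate block 28, 35, 40 and 44 members were called.

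Of 1678 alternative values of named genes, 1573 kept direction and call, 40 lost and 45 gained a call, and 20 changed sign, none of them called before. In neonatal against fetal libraries these were Nrp2 (-0.042), Ntn1 (-0.16), Plxnb2 (-0.13) and Plxnd1 (-0.10) with library size alone, and with 1 library left out Ntn1 (range -0.29 to 1.03), Plxnb2 (-0.13 to 0.12) and Plxnd1 (-0.060 to 0.17). In adult against neonatal libraries they were Sema4d with every gene kept (-0.017) and with the replicate block (-0.0059), and with 1 library left out Sema4d (-0.15 to 0.20) and Efnb1 (-0.21 to 0.014). In adult against fetal libraries they were, with 1 library left out, Nrp2 (-0.32 to 0.10), Plxnb2 (-0.016 to 0.24) and Sema6d (-0.14 to 0.49). The cause was not tested. Depth limits the scarce members: 3 adult counts are 0.217 to 0.229 CPM.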

Other observations

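The 10 members that entered no comparison were counted as follows. Ntn5, Robo3 and Robo4 had no count in any library. Slit1, the slit of the nervous system, had 2 counts in all, Epha5 had 3 and Unc5d had 5, the last 2 only in fetal libraries. Ephb1 had 15, 11 and 15 counts in the fetal, 6, 4 and 4 in the neonatal and 5, 3 and 4 in the adult libraries. Plxnb3 had 4, 2 and 6 fetal, 18, 14 and 13 neonatal and 7, 3 and 0 adult counts, and was thus highest in the neonatal libraries. Unc5a had 6, 2 and 6, then 7, 5 and 2, then 5, 9 and 4. Epha10, an Eph receptor without kinase activity, had 0, 2 and 0 fetal, 1, 2 and 1 neonatal and 9, 9 and 2 adult counts. Pooled over libraries, the adult Epha10 level was 14.9 times the fetal (95% interval 3.62 to 132, exact, counting error only) and 6.85 times the neonatal (2.29 to 27.5). These values were not tested between ages.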
